A study of Mus musculus with 14 samples.

Results

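Small extracellular vesicles from mouse neutrophils carried all 9 listed microRNAs (miRNAs) of the superfamily of miR-15, miR-16, miR-103 and miR-107. Of the 8 that could be tested, 1, miR-103-3p, was called lower after 27-hydroxycholesterol (27HC). Among all 239 tested names 8.79% were called lower, so the members' count was near the background. Members were the names of the count table that match mmu-miR-15a-5p, mmu-miR-15b-5p, mmu-miR-16-5p, mmu-miR-195a-5p, mmu-miR-322-5p, mmu-miR-497a-5p, mmu-miR-503-5p, mmu-miR-103-3p and mmu-miR-107-3p (the prefix for mouse is left off below), so 9 of 1695 names. According to the labels, the donors were WT BALB/c females, and Ly6G+ bone marrow cells were cultured for 48 h in DMSO (vehicle) or in 10 µM 27HC, an oxidised metabolite of cholesterol. The vesicles were collected with a commercial kit, and each group holds 7 libraries numbered 1 to 7. Each label also carries a pair of consecutive numbers whose meaning is not given, so p-values measure the spread between these libraries, whether or not they came from separate animals. The labels name no genetic change in either group.

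A miRNA guides the silencing machinery to messenger RNAs mainly through its seed, the bases near its 5′ end that pair with the target. The miR-15/16 branch is known for holding back cell-cycle and survival genes such as cyclins and Bcl2, and miR-16-5p is among the most abundant miRNAs of blood cells. miR-103-3p and miR-107-3p lie in introns of pantothenate kinase genes, which encode enzymes of coenzyme A synthesis, and are known for roles in insulin sensitivity and for targeting Dicer, the enzyme that cuts miRNA precursors. The mouse miR-322-5p and miR-503-5p pair is X-linked, and miR-322-5p is the counterpart of human miR-424-5p, known from myeloid differentiation.

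The mature sequences are shown because they define which members should recognise the same sites and which could be confused in counting. They are those of RefSeq for GRCm38.p6, in which 1431 of the 1695 names and all 9 members were found. Each is written 5′ to 3′ with the seed, bases 2 to 8, in capitals.
miR-16-5p: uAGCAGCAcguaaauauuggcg
miR-15a-5p: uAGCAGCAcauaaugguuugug
miR-15b-5p: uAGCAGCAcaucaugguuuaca
miR-195a-5p: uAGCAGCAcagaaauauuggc
miR-322-5p: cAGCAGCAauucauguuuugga
miR-497a-5p: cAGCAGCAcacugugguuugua
miR-503-5p: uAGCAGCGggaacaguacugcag
miR-103-3p: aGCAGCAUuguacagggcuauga
miR-107-3p: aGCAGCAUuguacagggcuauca

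The 6 bases AGCAGC were common to all of them, at bases 2 to 7 in 7 members and shifted to bases 1 to 6 in miR-103-3p and miR-107-3p. The seed AGCAGCA was shared by 6 members, miR-503-5p alone had AGCAGCG, and the 2 members of the shifted branch had GCAGCAU. Counting from 1 at the 5′ end, miR-103-3p and miR-107-3p differed by 1 substitution, G22C, and were identical over their first 21 bases. A read that ends before base 22 therefore cannot be assigned to one rather than the other, and the counting rule is not given in the sources used here. miR-16-5p and miR-195a-5p differed by G10A and U11G over the 21 bases they could be compared on. miR-15a-5p and miR-15b-5p differed by 4 substitutions, A12C, G20A, U21C and G22A. Outside the list, 2 names of the table had the seed AGCAGCA: miR-6342, with 3 counts over all libraries, and miR-6419, with 14.

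The members come from 11 hairpins, placed here on GRCm38.p6, while the submitters' processing notes name GRCm39 and the count table holds no positions. Mir15a (chr14:61632027-61632110, minus strand) lay in an intron of the noncoding gene Dleu2, and Mir16-1 (chr14:61631880-61631972), 54 bases away, overlapped a Dleu2 exon. The second pair, Mir15b (chr3:69009772-69009835, plus strand) and Mir16-2 (chr3:69009902-69009996), lay 66 bases apart in an intron of Smc4, a condensin subunit gene. Mir497 (chr11:70234717-70234800) and Mir195a (chr11:70235042-70235135) were 241 bases apart on the plus strand and overlapped no other annotated gene. Mir503 (chrX:53053984-53054054) and Mir322 (chrX:53054255-53054349) were 200 bases apart on the minus strand, also outside other genes. Mir103-1 (chr11:35782396-35782481) lay in an intron of Pank3, Mir103-2 (chr2:131288052-131288137) in an intron of Pank2 and Mir107 (chr19:34820687-34820773) in an intron of Pank1, each on the strand of its host. Mature miR-16-5p and miR-103-3p are thus sums over 2 hairpins each.

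Library totals ran from 112914 to 871189 counts, with a mean of 339003 ± 252278 (SD, n = 7) for DMSO and 221824 ± 108913 (SD, n = 7) for 27HC. Replicates 1 to 4 and 5 to 7 stood apart in both groups along the first principal component, which held 36.5% of the variance. The labels name no batch for this split, so the changes of the tested members are also given within each set of replicates.

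Levels are given as counts per 1000000 (CPM) on library sizes scaled by TMM, edgeR's trimmed mean scaling. As shares of all raw counts, the 9 members made up 41.4% ± 3.61 (SD, n = 7) in DMSO and 43.2% ± 1.29 (SD, n = 7) in 27HC. Nearly all of this was miR-16-5p, the first of the 1695 names by counts, with 1588431 counts or 40.5% of the total. The other 8 members together held 2.60% ± 0.166 (SD, n = 7) of DMSO counts and 2.36% ± 0.210 (SD, n = 7) of 27HC counts. By counts over all libraries, miR-15a-5p ranked 19 with 30199, miR-15b-5p 21 with 27291 and miR-322-5p 24 with 23597. The shifted branch was lower, with miR-103-3p at rank 46 (8480 counts) and miR-107-3p at rank 60 (4466 counts), next to miR-503-5p at rank 63 (4356 counts). miR-195a-5p ranked 211 with 207 counts and miR-497a-5p ranked 344 with 55. Members with the same seed, AGCAGCA, thus ran from rank 1 to rank 344.

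Within single libraries, 4 of the 8 steps between neighbours held throughout. miR-16-5p exceeded miR-15a-5p, miR-322-5p exceeded miR-103-3p, miR-103-3p exceeded miR-107-3p, and miR-503-5p exceeded miR-195a-5p in 7 of 7 libraries of each group. The other 4 steps were not fixed. miR-15a-5p was above miR-15b-5p in 4 of 7 DMSO and 7 of 7 27HC libraries, miR-15b-5p above miR-322-5p in 5 of 7 and 4 of 7, and miR-107-3p above miR-503-5p in 3 of 7 and 6 of 7. miR-195a-5p was above miR-497a-5p in 6 of 7 DMSO and 7 of 7 27HC libraries.

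**Figure D1:**
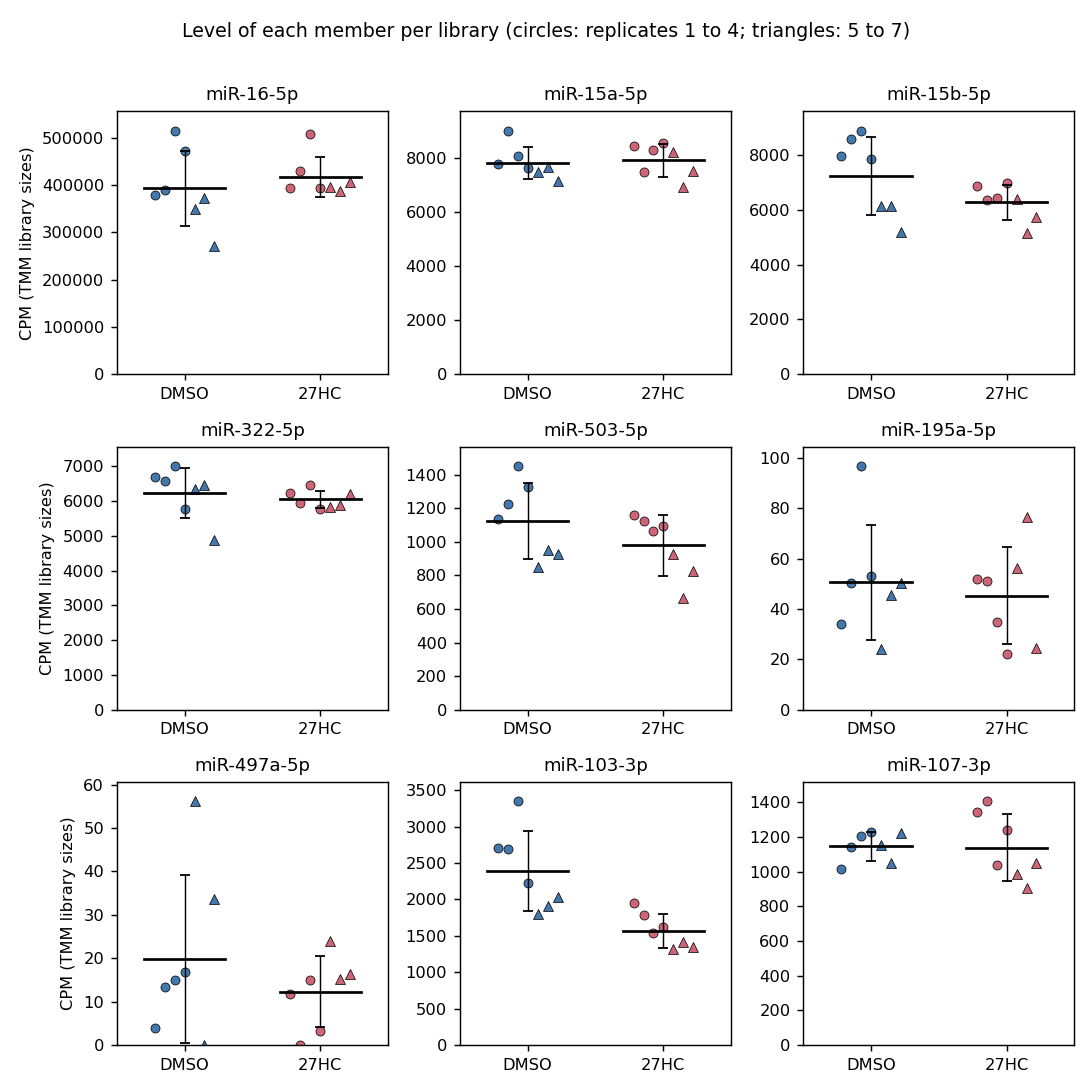
Level of each of the 9 members in each of the 14 libraries, in CPM on a linear axis from 0. Points are libraries (circles replicates 1 to 4, triangles replicates 5 to 7), horizontal lines are means and bars are SD (n = 7), and miR-103-3p is the member in which 6 of 7 27HC libraries lie below every DMSO library.

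The comparison of 27HC with DMSO asks whether the oxysterol changes what the vesicles carry. In edgeR's quasi-likelihood test over 239 names, 1 of the 8 tested members was called lower at a Benjamini-Hochberg adjusted p under 0.05 and 0 were called higher. Over all tested names 8.79% were called lower and 3.77% higher, or 12.6% in either direction, so the members' count was near the background. The median log2 fold change was -0.12 over the 8 tested members and 0.010 over all tested names. miR-497a-5p had too few counts for the test.

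miR-103-3p fell by 0.61 on the log2 scale (SE 0.14, 95% interval -0.91 to -0.31, edgeR adjusted p = 0.00906), to 0.656 of its DMSO level. DMSO libraries ran from 1804 to 3348 CPM with a median of 2227, and 27HC libraries from 1315 to 1945 CPM with a median of 1537. The means were 2390 ± 554 CPM (SD, n = 7) and 1566 ± 236 CPM (SD, n = 7). All 27HC libraries but 27HC replicate 1 were below the lowest DMSO library, so the groups overlapped by that library, and 5.44% of all tested names had groups that did not overlap at all. By fold change, miR-103-3p was the 29th lowest of 239. Within each set of replicates the groups did not overlap: 2227 to 3348 against 1537 to 1945 CPM in replicates 1 to 4, and 1804 to 2039 against 1315 to 1408 CPM in replicates 5 to 7. How many of all tested names separated within a set was not counted. An exact permutation of 3 against 3 cannot go below p = 0.1. The log2 change of miR-103-3p was -0.60 (edgeR adjusted p = 0.0112) in replicates 1 to 4 and -0.49 in replicates 5 to 7, where the smaller fit did not call it (edgeR adjusted p = 0.0644).

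miR-107-3p, identical to miR-103-3p but for 1 base, did not pass the test. Its log2 change was -0.0057 (SE 0.11, 95% interval -0.24 to 0.23, edgeR adjusted p = 0.980). DMSO libraries lay between 1013 and 1228 CPM with a median of 1155, and 27HC libraries between 903 and 1405 CPM with a median of 1050. The 27HC libraries thus reached both above and below the DMSO range, and their spread was wider (SD 191 against 85.3 CPM, n = 7 each). The high 27HC values were in replicates 1 to 4, where the log2 change was 0.20, and the low ones in replicates 5 to 7, where it was -0.21. These changes did not differ past the threshold in the interaction test (edgeR adjusted p = 0.481).

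The 4 abundant members of the miR-15/16 branch did not pass the test, and their intervals limit how far they moved. miR-16-5p lay between 271687 and 515003 CPM in DMSO (median 378226) and between 387563 and 507121 CPM in 27HC (median 396993). Its log2 change was 0.085 (SE 0.14, 95% interval -0.21 to 0.37, edgeR adjusted p = 0.818). miR-15a-5p had the narrowest interval, with a log2 change of 0.017 (SE 0.076, 95% interval -0.14 to 0.18, edgeR adjusted p = 0.934), from 7827 ± 593 to 7920 ± 613 CPM (SD, n = 7 each). miR-322-5p had a log2 change of -0.047 (SE 0.082, 95% interval -0.22 to 0.13, edgeR adjusted p = 0.828), from 6244 ± 718 to 6045 ± 254 CPM (SD, n = 7 each). Within replicates 1 to 4 and 5 to 7 the log2 changes were 0.042 and 0.26 for miR-16-5p, 0.076 and 0.032 for miR-15a-5p, and -0.027 and 0.024 for miR-322-5p. The direction of the 3 small main changes turned under other settings, as did that of miR-107-3p.

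miR-15b-5p had a log2 change of -0.21 (SE 0.12, 95% interval -0.46 to 0.049, edgeR adjusted p = 0.351). Its DMSO libraries ran from 5177 to 8878 CPM with a median of 7860, and its 27HC libraries from 5141 to 6971 CPM with a median of 6381. In replicates 1 to 4 the groups did not overlap, at 7860 to 8878 CPM against 6350 to 6971 CPM, with a log2 change of -0.26 (edgeR adjusted p = 0.0597). How many of all tested names separated in this set was not counted. In replicates 5 to 7 the groups of miR-15b-5p overlapped, and the log2 change was -0.0054. The interaction of treatment and set had an edgeR adjusted p = 0.476. Over all 239 names, edgeR called 0 interactions after adjustment and 24 had an unadjusted p under 0.05.

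The 2 scarcer tested members had wider intervals. miR-503-5p, the member with the variant seed, had a log2 change of -0.20 (SE 0.15, 95% interval -0.52 to 0.12, edgeR adjusted p = 0.503). Its levels were 850 to 1453 CPM in DMSO and 666 to 1164 CPM in 27HC, and in both groups replicates 5 to 7 lay below replicates 1 to 4. Its log2 change was -0.15 within the first set and -0.16 within the second. miR-195a-5p had a log2 change of -0.24 (SE 0.33, 95% interval -0.94 to 0.46, edgeR adjusted p = 0.789), which turned to 0.080 without DMSO replicate 3. It was -0.52 in replicates 1 to 4, and in the other set miR-195a-5p missed the filter on low counts.

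**Figure D2:**
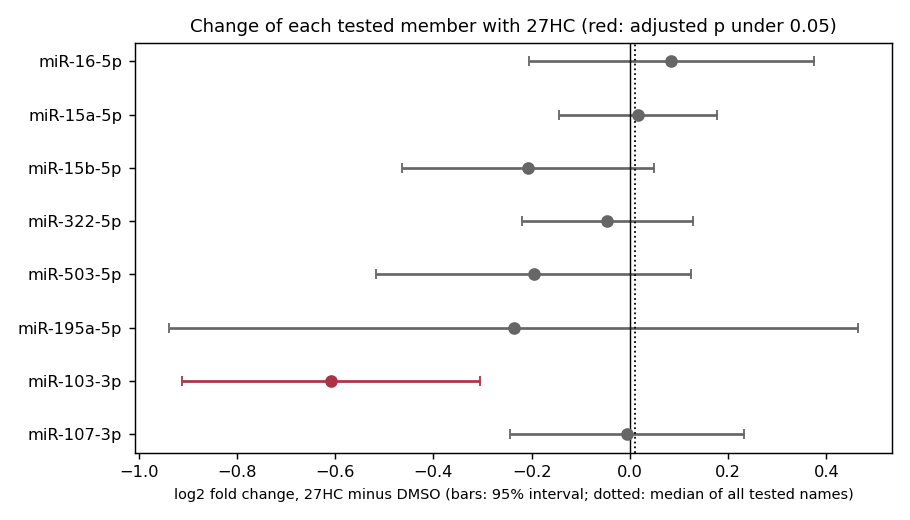
Log2 fold change of the 8 tested members, 27HC minus DMSO, with 95% intervals from edgeR. The vertical lines mark 0 and, dotted, the median of all tested names at 0.010, and the interval of miR-103-3p alone lies wholly below 0.

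Because members share a seed core but mostly come from different loci, their ratios were compared within libraries, where the library scaling cancels. For each of the 28 pairs of tested members, the difference in log2 CPM entered a two-sided exact permutation test that used each of the 3432 ways to split the libraries into 7 and 7. Its smallest possible p is 0.000583, and p-values were adjusted over the 28 pairs. Of these, 7 pairs passed an adjusted p of 0.05 and 9 had an unadjusted p under 0.05. Pairs of the other tested names were not run, so neither these calls nor a separation of the groups by a ratio has a background share. Pairs with miR-103-3p made up 6 of the 7 that passed, and they share its values, so they are not separate pieces of evidence. Among the 21 pairs without it, 1 passed.

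The ratio of miR-103-3p to miR-107-3p separated the groups. Counts of miR-103-3p per count of miR-107-3p were 2.68, 2.35, 2.77, 1.81, 1.56, 1.82 and 1.67 in DMSO replicates 1 to 7. They were 1.45, 1.27, 1.48, 1.31, 1.33, 1.56 and 1.28 in 27HC replicates 1 to 7. The lowest DMSO ratio, 1.5625 in replicate 5, and the highest 27HC ratio, 1.559 in replicate 6, were almost equal, and the groups did not overlap. The mean log2 ratio was 1.03 ± 0.34 (SD, n = 7) in DMSO and 0.46 ± 0.12 (SD, n = 7) in 27HC, a difference of -0.57 (exact permutation p = 0.000583, the smallest possible, adjusted p = 0.00816). The difference was -0.78 in replicates 1 to 4 and -0.28 in replicates 5 to 7, and whether these differ was not tested. Together the 2 names with the seed GCAGCAU made up 0.352% ± 0.0345 (SD, n = 7) of DMSO counts and 0.266% ± 0.0450 (SD, n = 7) of 27HC counts. With their counts merged into 1 name, the log2 change was -0.40 (edgeR adjusted p = 0.043).

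Of the 6 tested miR-15/16 members, 5 rose relative to miR-103-3p, and miR-195a-5p did not pass. There were 3.39 ± 0.610 (SD, n = 7) counts of miR-15a-5p per count of miR-103-3p in DMSO and 5.14 ± 0.724 (SD, n = 7) in 27HC, with no overlap between groups (log2 difference 0.61, exact permutation p = 0.000583, adjusted p = 0.00816). For miR-16-5p the ratio was 168 ± 32.1 (SD, n = 7) in DMSO and 271 ± 44.3 (SD, n = 7) in 27HC (log2 difference 0.69, exact permutation adjusted p = 0.00816). The other log2 differences were 0.55 for miR-322-5p (adjusted p = 0.0218 in the same exact test), 0.40 for miR-15b-5p (adjusted p = 0.00816) and 0.40 for miR-503-5p (adjusted p = 0.0196). The differences of the 5 that passed were 0.34 to 0.67 in replicates 1 to 4 and 0.32 to 0.77 in replicates 5 to 7. miR-195a-5p had a difference of 0.45 (exact permutation p = 0.119, adjusted p = 0.306). Against miR-107-3p, by contrast, no tested miR-15/16 member had a ratio that passed, and the log2 differences ran in both directions. They were 0.039 for miR-15a-5p, 0.13 for miR-16-5p, -0.016 for miR-322-5p, -0.17 for miR-15b-5p, -0.17 for miR-503-5p and -0.12 for miR-195a-5p. All 6, which share the values of miR-107-3p, were below 0 in replicates 1 to 4 (-0.57 to -0.11) and above 0 in replicates 5 to 7 (0.039 to 0.49), and whether the sets differ was not tested for these ratios.

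**Figure D3:**
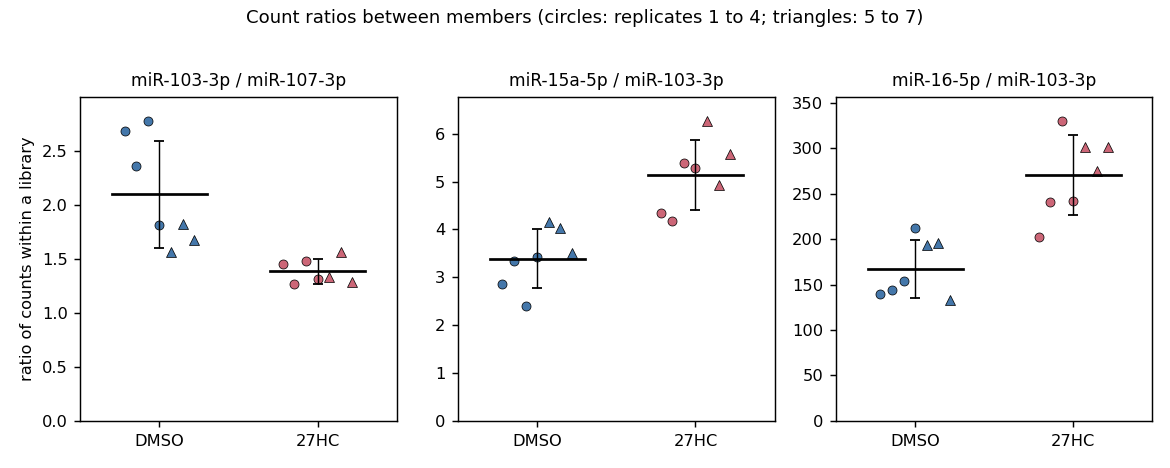
Ratio of counts within each library for 3 pairs of members, on linear axes from 0. Points are libraries (circles replicates 1 to 4, triangles replicates 5 to 7), lines are means and bars are SD (n = 7), and the groups do not overlap for miR-103-3p over miR-107-3p or for miR-15a-5p over miR-103-3p.

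**Figure D4:**
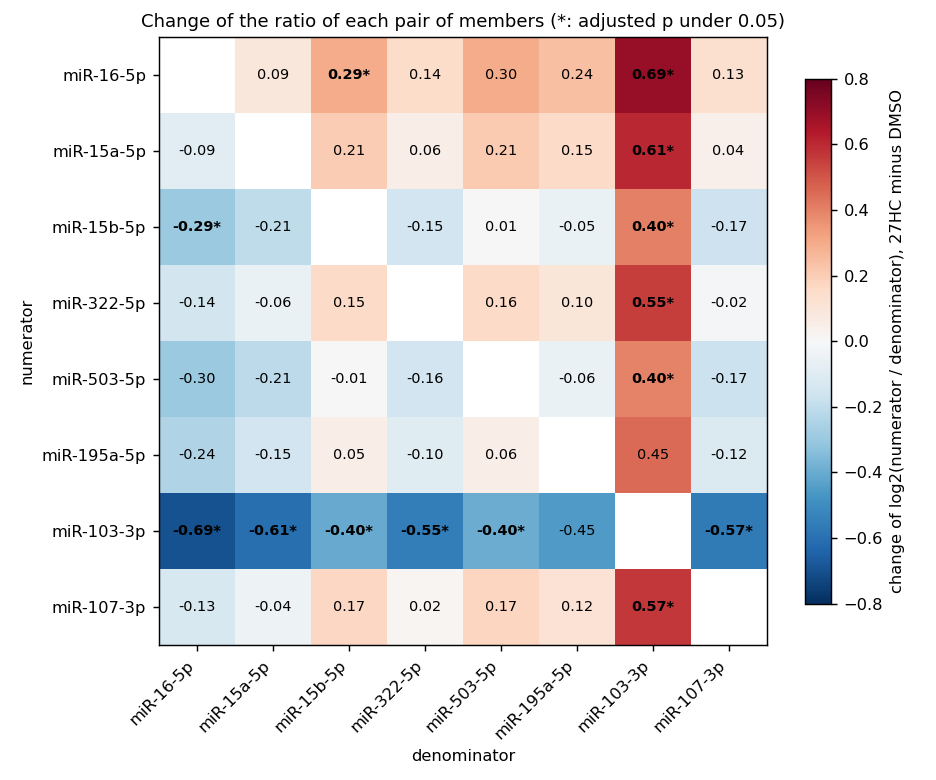
Change of the log2 ratio of each pair of tested members, 27HC minus DMSO, with the numerator in rows and the denominator in columns. Asterisks mark the 7 pairs with an adjusted p under 0.05, of which 6 lie in the row and column of miR-103-3p.

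The members of a cluster were also compared with each other. Counts of miR-16-5p are sums over Mir16-1 and Mir16-2, so its ratios to miR-15a-5p and miR-15b-5p do not isolate 1 cluster. miR-16-5p, fed by both clusters, had a median of 48.6 counts per count of miR-15a-5p in DMSO and 54.0 in 27HC, and 57.1 and 67.8 per count of miR-15b-5p. The log2 ratio of miR-15b-5p to miR-16-5p differed by -0.29 between treatments (exact permutation p = 0.0117, adjusted p = 0.0466), the 1 call without miR-103-3p. Within the sets it was -0.30 for replicates 1 to 4 and -0.29 for the others. This call was lost in 10 of the 14 analyses that left out 1 library, with adjusted p-values between 0.0272 and 0.0979. For miR-15a-5p over miR-16-5p the log2 difference was -0.089 (exact permutation p = 0.461), with 0.033 and -0.25 within the sets. The counts of miR-15a-5p per count of miR-15b-5p were 1.11 ± 0.176 (SD, n = 7) in DMSO and 1.27 ± 0.0584 (SD, n = 7) in 27HC, which did not pass adjustment (exact permutation p = 0.0472, adjusted p = 0.147). The log2 difference of this ratio was 0.21 over all libraries, 0.33 in replicates 1 to 4, where the groups were at the smallest p that 4 against 4 allows (exact permutation p = 0.0286, unadjusted), and 0.035 in replicates 5 to 7. In the X-linked pair there were 5.70 ± 1.10 (SD, n = 7) counts of miR-322-5p per count of miR-503-5p in DMSO and 6.37 ± 1.34 (SD, n = 7) in 27HC (exact permutation p = 0.313), a log2 difference of 0.12 and 0.21 within the sets.

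The third cluster was hardly represented. miR-195a-5p had 140 counts over the DMSO libraries, or 59.0 per 1000000 (95% exact interval 49.6 to 69.6), and 67 over the 27HC libraries, or 43.1 per 1000000 (33.4 to 54.8). These intervals cover counting error only, and 71 of the 140 DMSO counts came from DMSO replicate 3. As a mean over libraries, its share of all counts was 0.00495% ± 0.00178 (SD, n = 7) in DMSO and 0.00449% ± 0.00204 (SD, n = 7) in 27HC. Since miR-195a-5p differs from miR-16-5p by 2 substitutions, its counts were also set against those of miR-16-5p. There was a median of 1.22 counts per 10000 miR-16-5p counts in DMSO (0.688 to 1.88) and of 1.19 in 27HC (0.562 to 1.97). How many of them are misread miR-16-5p was not tested. miR-497a-5p had 39 counts in DMSO and 16 in 27HC, or 16.4 and 10.3 per 1000000, with a count in 6 of 7 libraries of each group.

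The opposite arms of the hairpins matter here because only they could separate the 2 hairpins of miR-16-5p and the 2 of miR-103-3p. Capitals mark the bases that differ when each pair is set side by side from the 5′ end without gaps.
miR-16-1-3p: CcAGUAUuGaCugugcugcuGA
miR-16-2-3p: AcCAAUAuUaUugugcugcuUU
miR-103-1-5p: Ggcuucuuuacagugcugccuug
miR-103-2-5p: Agcuucuuuacagugcugccuug

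The arms of the miR-16 hairpins were rare beside 1588431 counts of miR-16-5p, with 28 counts for miR-16-1-3p and 70 for miR-16-2-3p. The first thus made up 28.6% of both (95% exact interval 19.9% to 38.6%), with 26.2% in DMSO and 32.4% in 27HC. The interval is over pooled counts and covers counting error only. In single libraries, miR-16-1-3p had 0 counts beside 13 of miR-16-2-3p in DMSO replicate 7, and 5 beside 4 in DMSO replicate 2. With as few as 1 count of both in a library, the ratio of the 2 arms could not be tested. The arms of the miR-103 hairpins, which differ by G1A, had 4 counts each, all in 27HC replicate 1, so their counts were identical in every library. Whether a read could be entered for both arms is not known, so greater depth might not tell these hairpins apart. The share of each hairpin in the fall of miR-103-3p was therefore not resolved. miR-107-5p had 5 counts, all in DMSO libraries. miR-15a-3p had 26 counts and miR-15b-3p 2409, and their log2 ratio differed by 0.22 between treatments (exact permutation p = 0.781).

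Of the opposite arms, 3 had enough counts for edgeR's test, and none passed. miR-15b-3p had a log2 change of -0.18 (edgeR adjusted p = 0.448) and made up 8.20% ± 0.935 (SD, n = 7) of the counts of both arms in DMSO and 8.32% ± 0.977 (SD, n = 7) in 27HC. miR-503-3p had a log2 change of -0.21 (edgeR adjusted p = 0.600), and its share was 17.4% ± 3.47 (SD, n = 7) in DMSO and 17.7% ± 4.26 (SD, n = 7) in 27HC. miR-322-3p had the lowest value, with a log2 change of -0.67 (SE 0.28, 95% interval -1.26 to -0.082) and an edgeR p of 0.0281 that did not survive adjustment (adjusted p = 0.136). Its share of both arms was 1.63% ± 0.407 (SD, n = 7) in DMSO and 1.05% ± 0.338 (SD, n = 7) in 27HC, from 366 counts in all. The share of the opposite arm thus differed widely between hairpins, including the neighbours Mir322 and Mir503. miR-195a-3p had 1 count.

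**Figure D5:**
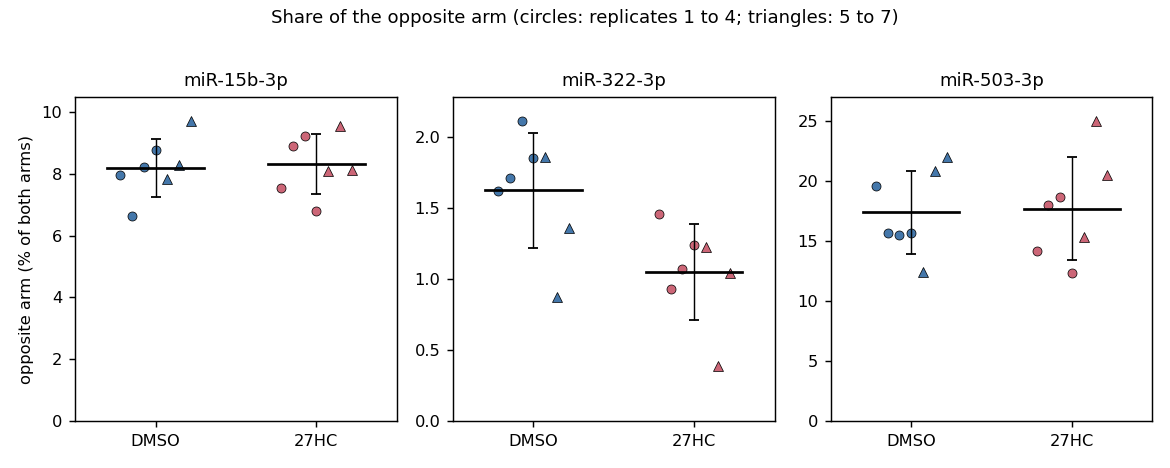
Counts of the opposite arm as a percentage of the counts of both arms, for the 3 hairpins whose opposite arm was tested. Points are libraries (circles replicates 1 to 4, triangles replicates 5 to 7), lines are means and bars are SD (n = 7), and only miR-322-3p has a lower mean in 27HC, at 1.05% against 1.63%.

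Members differed in which miRNAs they followed across the 14 libraries. These correlations of log2 CPM are descriptions over points that share treatment, set of replicates and depth. miR-16-5p was closest to miR-148a-3p (r = 0.960), miR-148b-3p (r = 0.954) and miR-185-5p (r = 0.809). miR-103-3p was closest to miR-30b-5p (r = 0.906), miR-129-2-3p (r = 0.895) and miR-301a-3p (r = 0.886), and miR-107-3p to miR-19a-3p (r = 0.698), miR-93-5p (r = 0.695) and miR-326-3p (r = 0.662). Of the miRNAs nearest to miR-103-3p, edgeR called miR-129-2-3p (log2 change -2.83, adjusted p = 0.000108) and miR-301a-3p (log2 change -1.24, adjusted p = 0.0193) lower, and miR-30b-5p missed the threshold (log2 change -0.96, adjusted p = 0.0961). Among members, the highest r joined miR-15b-5p and miR-503-5p (0.88), which come from different chromosomes and differ in their seed. miR-15b-5p and miR-103-3p had r = 0.76, and miR-103-3p and miR-107-3p r = 0.34.

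The labelled cell type was checked by marker miRNAs. miR-223-3p, the myeloid marker, was at 142783 ± 40459 CPM (SD, n = 7) in DMSO and 119314 ± 11586 CPM (SD, n = 7) in 27HC. All 4 names listed as neutrophil and myeloid markers were tested, and their sum ran from 83291 to 216664 CPM in DMSO and from 113054 to 149157 CPM in 27HC. Of these, edgeR called 2 lower, miR-142a-3p (log2 change -1.53, adjusted p = 3.55e-05) and miR-142a-5p (log2 change -0.74, adjusted p = 0.0223). These are the arms of a pan-haematopoietic locus, which does not single out neutrophils. edgeR did not call miR-223-3p (log2 change -0.26, adjusted p = 0.406) or miR-223-5p (log2 change 0.17, adjusted p = 0.388). The 5 erythroid markers, listed because red cells are rich in miR-16-5p, include miR-486a-5p and miR-486b-5p, which had identical counts in every library. With these counted once, the list summed to 505 to 1062 CPM in DMSO and 730 to 1126 CPM in 27HC. Both were tested and not called, and miR-451a, the defining one, was at 27.0 ± 8.34 and 43.5 ± 24.3 CPM (SD, n = 7 each). Of the lymphoid markers edgeR called miR-150-5p lower (log2 change -0.97, adjusted p = 0.0134), 1 of 2. It called 0 of 4 tested stromal, endothelial and muscle markers and 0 of 1 for liver. For comparison, it called 8.79% of all tested names lower and 3.77% higher. Uncalled markers were not absent. Liver miR-122-5p averaged 3232 ± 736 CPM under DMSO and 3061 ± 575 under 27HC (SD, n = 7 each), above the means of miR-103-3p. Sums of the stromal, endothelial and muscle list peaked at 1868 CPM (DMSO) and 1876 CPM (27HC). The source of these miRNAs was not tested. The part of these markers, or of depth, in the fall of miR-103-3p was not tested, and in pooled vesicles fewer vesicles of one source and less of a miRNA per vesicle cannot be told apart.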

How the data were processed

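The authors deposited 1 table of raw counts, with 1 whole number for each mature miRNA in each library. Per the labels' protocols, RNA came from the miRNeasy Micro kit and libraries from the QIAseq miRNA kit. The submitters' processing notes name R 4.1.2, edgeR, limma, GRCm39 and mm39. The aligner, the rule for reads that match several miRNAs, and whether molecular identifiers were counted are not given in the sources used here. All 14 libraries, the rows of the table, matched a label.

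edgeR 4.0.16 in R 4.3.3 was run with TMM scaling, treatment as the only term and filterByExpr (minimum count 10, minimum total 15), which kept 239 names with 99.4% of counts and left out 1456. p-values were adjusted over all 239. Log2 CPM used a prior count of 2. Pairs of libraries within a group (42) differed by at least 5.57 chi-square units per degree of freedom, so none was a copy. On simulated counts, edgeR called 25 of 25 tested names changed 4-fold and 18 of 25 changed 2-fold, each with 1 unchanged name called. With 0 names changed, 1 name was called. The simulation gave every name the same dispersion and held no difference between the sets of replicates. Changes as small as that of miR-103-3p were not simulated. Alternatives used DESeq2 1.42.0, limma 3.58.1 (voom), other scalings and filters, a replicate block and subsets of libraries. Named were all members, their opposite arms, names with a member's seed, the 3 tested names most correlated with miR-16-5p, miR-103-3p and miR-107-3p, and marker lists. Members, lists and the split of replicates were chosen with earlier results of these data known.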

Additional observations from a re-analysis of the deposited data

Results flagged for a closer look

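Of 16 groups of 7 libraries looked at (8 tested members in each treatment), 2 held a library far from the rest by Dixon's criterion, which flags about 1 in 20 groups by chance. miR-16-5p stood at 507121 CPM in 27HC replicate 3, with the next library at 430204 CPM. miR-195a-5p stood at 96.8 CPM in DMSO replicate 3, from 71 counts, with the next library at 52.9 CPM. Without that library the log2 change of miR-195a-5p was 0.080.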

How the results depend on the processing

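miR-103-3p kept its direction in every alternative run, with log2 changes of -0.68 to -0.45 without single libraries (edgeR adjusted p 0.00633 to 0.0442) and -0.73 to -0.49 otherwise. Merged with miR-107-3p, the sum changed by -0.40. The main analysis called 30 names and 1 member, replicates 1 to 4 alone 42 names and 1 member, and replicates 5 to 7 alone 12 names and 0 members. Leaving out single libraries gave 21 to 34 names and 1 member. The 4 and 3 libraries per group of the 2 sets gave 0 called pairs each. An exact permutation cannot go below p = 0.0286 for 4 against 4 or p = 0.1 for 3 against 3. After adjustment over the 28 pairs, 3 against 3 can call no pair. With 4 against 4, a call needs many pairs at the smallest p at once. These 0 calls therefore do not decide whether the ratios changed within a set. Permuting within the sets over all libraries gave 10 called pairs, and leaving out single libraries 6 to 8, against 7.

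Members that were not called changed sign as follows. miR-15a-5p was at -0.011 with unscaled totals, -0.075 without a filter, -0.0012 with miR-103-3p and miR-107-3p merged, and -0.011 to 0.10 without single libraries. miR-16-5p was at -0.039 without a filter. miR-195a-5p ran from -0.33 to 0.080 without single libraries. miR-322-5p was at 0.047 with a mean count of at least 100, 0.024 in replicates 5 to 7, and -0.060 to 0.039 without single libraries. miR-107-3p was at 0.028 with RLE scaling, 0.088 with a mean count of at least 100, 0.038 in DESeq2, 0.0020 in limma-voom, 0.20 in replicates 1 to 4, and -0.047 to 0.099 without single libraries. The log2 ratio of miR-15a-3p to miR-15b-3p was -0.091 with a pseudocount of 0.1 and -0.17 to 0.67 without single libraries, below 0 without DMSO replicate 7 or 27HC replicate 7. The names of the main fit also moved as a whole between settings. Their median shift from the main fit was -0.091 without a filter and 0.096 with a mean count of at least 100. It was 0.032 with RLE scaling and 0.051 in replicates 1 to 4. The causes of the changes of sign were not tested.

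Deviations of log2 CPM from the group means correlated at 0.069 to 0.60 between same-numbered libraries, below 0.1 in 1 of 7 pairs. All these correlations were above 0, but not every library correlated best with its own number. Whether the numbers pair the samples was thus not settled. The main tests did not pair them, and tests that do are given next. With the replicate block, edgeR called 37 names and miR-103-3p changed by -0.59 (adjusted p = 0.00194). The paired sign-flip test, whose smallest p is 0.0156, gave 0 called pairs. After adjustment over the 28 pairs, that p passes only if many pairs reach it at once. The ratio of miR-103-3p to miR-107-3p, at this smallest p, had a sign-flip adjusted p of 0.0729. These 0 calls therefore do not decide whether the ratios changed in paired libraries. Opposite arms of both miR-16 and miR-103 hairpins were too scarce to test, and few counts limit miR-195a-5p and miR-497a-5p.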
